A study of Homo sapiens with 6 samples.

Results

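Aminoacyl-tRNA synthetases join each amino acid to its own transfer RNA, the step that gives the genetic code its meaning. Most amino acids have a pair of nuclear genes for this, one for the enzyme of the cytosol and one for the enzyme that is imported into mitochondria, where it serves the few proteins that mitochondrial DNA encodes. The members were taken by name: of the 28395 genes in the deposited table, 43 carried the words tRNA synthetase in their full name, and 41 remained after 2 pseudogenes were left out. A symbol ending in ARS2 or the word mitochondrial in the full name placed 17 of them in the mitochondrial group, and the other 24 formed the cytosolic group. The rule itself uses names and no measured value, but it was chosen with earlier results of these data known.

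The cells were A375, an established human melanoma line labelled as wild type, kept in DMEM with fetal bovine serum. For 6 h they were given ozonated olive oil (OZO) at 0.01 % or, as the control, plain olive oil (OLO) at 0.01 %, and 3 libraries of each group were sequenced. The labels do not say whether the libraries of a group came from separate cultures, and the study describes its A375 transcriptome data as independent experiments. The value analysed here is the authors' mean log2 CPM over all 6 libraries, OLO and OZO together, so every level below describes A375 cells in oil-containing medium and not one of the treatments. The difference between OZO and OLO was not analysed here, values of single libraries were not used, and no level carries an error or a test. Of the 8 melanocyte lineage genes examined, 5 reached 10 fragments per library, a share near the 64.9% of all protein-coding genes. SOX10 had 919 fragments and MITF 499, while TYR was listed at 0 and PMEL and DCT stayed under 6. Of the other markers, 2 of 3 fibroblast, 1 of 3 keratinocyte, 1 of 2 endothelial and 0 of 2 leukocyte genes reached 10 fragments. The fibroblast marker LUM had 87.6 and the keratinocyte marker KRT14 had 77.5, above the lineage genes S100B (51.0), MLANA (36.6) and TYRP1 (11.0). The 2 leukocyte markers summed to 0.118 CPM, the 2 endothelial markers to 1.12 CPM, the 3 keratinocyte markers to 4.38 CPM and the 3 fibroblast markers to 5.95 CPM, against 83.1 CPM for the lineage genes. The lists differ in size, and the lineage sum includes 49.9 CPM for SOX10 and 27.1 CPM for MITF.

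The depth behind these levels was read from the lowest values of the table, from which a library held 18409902 counted fragments as a geometric mean. A member's implied fragments are the geometric mean count per library that its mean log2 CPM stands for. Levels were then divided by the length of the gene's canonical transcript, because a longer mRNA yields more fragments, and they are given as log2 CPM per kb. Gene positions are those of GENCODE 44 on GRCh38. On the scale per kb the median of the 12416 protein-coding genes with at least 10 fragments was 2.98.

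The sequences at the starts of these genes come first, because one motif was found at different shares of the cytosolic and the mitochondrial genes. Shares over genes were not tested. RefSeq start windows of GRCh38.p14, from 250 bases before to 50 bases after a start, were matched for 33 of the 41 genes. Among the genes with no matched window were AARS2, LARS1, TARS3, VARS1, VARS2 and YARS1. The C/EBP-ATF composite element, which is known as a binding site of the stress-response factor ATF4, was searched for as TGATGNAA on both strands. It was found in 7 of the 19 cytosolic genes with a window (36.8%), in 1 of 14 mitochondrial genes (7.14%), in 3.61% of all 15306 protein-coding genes with a window and in 2.90% of those with at least 10 fragments. Of the 7 cytosolic matches, 6 were the letters TTGCATCA or its reverse complement TGATGCAA, and 6 began within 50 bases of a start. Positions count from the RefSeq start of the window, negative before it. The 7 cytosolic sites are printed below with 10 bases on either side, read in the direction of transcription, with the match in capitals, so that the near-identical core can be seen apart from its differing surroundings.

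AARS1, position -187, chr16:70289676-70289703, minus strand: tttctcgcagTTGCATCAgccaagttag
CARS1, position -2, chr11:3057408-3057435, minus strand: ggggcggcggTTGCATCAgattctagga
GARS1, position -33 from the downstream of its starts, chr7:30594835-30594862, plus strand: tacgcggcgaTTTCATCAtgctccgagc
IARS1, position -13, chr9:92293693-92293720, minus strand: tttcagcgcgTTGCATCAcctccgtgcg
MARS1, position -4, chr12:57488054-57488081, plus strand: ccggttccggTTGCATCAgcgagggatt
NARS1, position 15, chr18:57621805-57621832, minus strand: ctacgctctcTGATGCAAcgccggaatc
TARS1, position 3 from the downstream of its starts, chr5:33440957-33440984, plus strand: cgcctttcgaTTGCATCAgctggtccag

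The single mitochondrial match, in YARS2, lay farther from the start and had a different core: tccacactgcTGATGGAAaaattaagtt. It began at position -197 (chr12:32756077-32756104, minus strand), not far before the AARS1 match at -187. Among the cytosolic matches, that of GARS1 also had letters other than TTGCATCA or TGATGCAA. The cytosolic genes with a match had a median level of 6.86 log2 CPM per kb and ran from 3.08 to 7.86. The 12 without one had a median of 6.04 and ran from -4.18 for AARSD1, which was hardly read, to 7.51, so the 2 sets overlapped widely. The 12 also include AIMP1 at 5.41 and AIMP2 at 4.22, which like AARSD1 charge no tRNA, whereas every cytosolic gene with a match encodes a charging enzyme. The letters are a description of these windows, and binding was not measured.

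A second motif was shared by both compartments. The ETS core CCGGAAG, read on both strands and known as the target of GABPA and related factors, was found in 9 of 19 cytosolic genes (47.4%) and in 7 of 14 mitochondrial genes, against 22.2% of protein-coding genes with at least 10 fragments. The members did not have more windows per gene than others (1.36 against 1.41). The CCAAT box was found in 54.5% of the members and in 43.9% of protein-coding genes with at least 10 fragments. The E-box CACGTG, which MYC and its partners can bind, was found in 5 of the 33 members (15.2%) and in 12.6% of those genes.

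**Figure D1:**
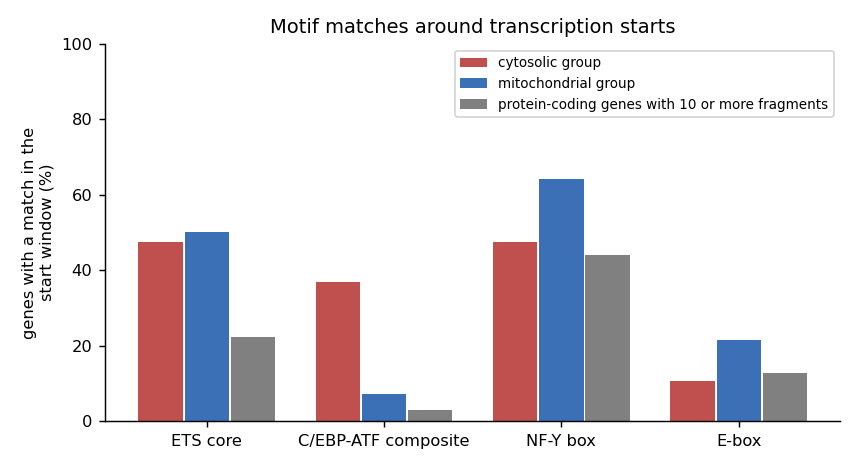
Share of genes (%) with a motif match in a RefSeq start window, for the cytosolic group (19 genes), the mitochondrial group (14 genes) and 10272 protein-coding genes with at least 10 fragments; the CCAAT box is drawn as NF-Y box. The composite element stands at 36.8% in the cytosolic group against 7.14% and 2.90%, while the ETS core is at 47.4% in the cytosolic group and close to that in the mitochondrial group.

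HARS1 and HARS2, the cytosolic and mitochondrial histidine enzymes, were the only members that faced each other across a single start region. Their starts lay 85 bases apart on chromosome 5, and the 84 bases between them (GRCh38.p14, chr5:140691371-140691454, plus strand) hold an ETS core near each end, in capitals.

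HARS1 to HARS2: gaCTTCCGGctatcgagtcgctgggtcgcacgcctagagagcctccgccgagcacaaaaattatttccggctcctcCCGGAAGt

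HARS1 had 6.33 log2 CPM per kb and HARS2 had 4.56, which is 3.42-fold lower. On the log2 scale HARS1 minus HARS2 was 1.42 per kb of coding sequence and 1.43 with no length. The order turned only with the union of all annotated exons as the length, where the difference was -0.50. The annotated genes overlap at this end, and whether strand was used in counting is not stated. A head-to-head arrangement with another protein-coding gene within 1 kb was found for 10 of the 41 members (24.4%), against 9.46% of 20046 annotated protein-coding genes. Besides the HARS pair these were KARS1 with TERF2IP, YARS1 with S100PBP, AIMP1 with TBCK, AIMP2 with PMS2, RARS2 with ORC3, EARS2 with UBFD1, FARS2 with LYRM4 and SARS2 with MRPS12. MRPS12, a protein of the mitochondrial ribosome, had 3.93 log2 CPM per kb next to 2.94 for SARS2, the mitochondrial serine enzyme. TERF2IP, a telomere protein, had 6.50 next to 7.51 for KARS1.

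The next question was how abundant the 2 groups of synthetase mRNAs were. The cytosolic group had a median of 6.18 log2 CPM per kb and the mitochondrial group 3.46, a difference of 2.73 or 6.61-fold between medians. On the log2 scale the difference was 1.99 per kb of coding sequence and 2.03 with no length. Of the 24 cytosolic genes, 21 lay above the median of protein-coding genes, and of the 17 mitochondrial genes 11 did. Summed over genes, the cytosolic group held 2064 CPM per kb and the mitochondrial group 346 CPM per kb, a ratio of 5.96. The 10 highest members included 9 cytosolic genes.

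**Figure D2:**
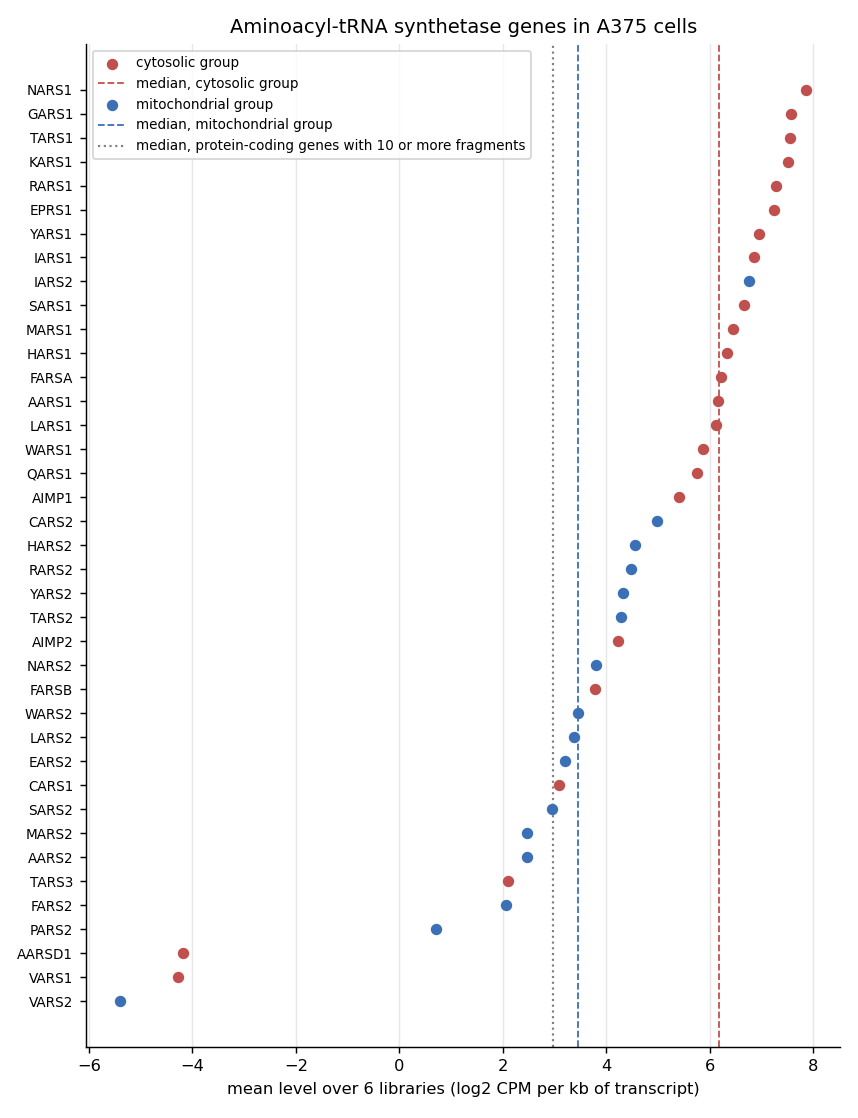
Mean level over the 6 libraries of 39 of the 41 members (log2 CPM per kb of canonical transcript), ordered by level, with dashed lines at the medians of the cytosolic (6.18) and mitochondrial (3.46) groups and a dotted line at the median of protein-coding genes with at least 10 fragments (2.98). Points are the deposited means after division by transcript length and have no error bars, and AARSD1, VARS1 and VARS2 lie far below all others.

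Per kb of canonical transcript, the asparagine, glycine and threonine enzymes led the family. NARS1 (chromosome 18, 57600656 to 57622213) had the highest level, 7.86 log2 CPM per kb from an implied 11806 fragments per library. GARS1 (chromosome 7, 30580533 to 30634033) followed with 7.56 from 8494 fragments, and TARS1 (chromosome 5, 33440696 to 33468091) with 7.54 from 9154 fragments. KARS1 (chromosome 16, 75627474 to 75648643) had 7.51 from 6684 fragments. The mean log2 CPM of GARS1 was 8.85 over a transcript of 2437 bases, and that of KARS1 8.50 over 1991 bases. GARS1 and KARS1 are known to supply the glycine and lysine enzymes of both the cytosol and the mitochondria from a single gene each. Per kb of canonical transcript they held ranks 2 and 4 of the 41. These ranks depended on the length used. With exon unions, 17366 bases for GARS1, it had 4.73 and KARS1 had 6.49. With no length, EPRS1, NARS1, IARS1 and TARS1 all stood above GARS1. On the main scale, the order after KARS1 was as follows. RARS1 at 7.28, EPRS1 at 7.23, YARS1 at 6.96 and IARS1 at 6.86 came next. EPRS1 encodes a fused enzyme that charges both glutamate and proline, and before division by length it was the highest member, with a mean log2 CPM of 9.51 and 13440 fragments.

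The lowest well-read cytosolic enzyme genes were CARS1 and TARS3. CARS1 (chromosome 11, 3000922 to 3057613), which charges cysteine, had 3.08 log2 CPM per kb from 427 fragments. TARS3, a second threonine enzyme related to TARS1, had 2.09 from 273 fragments, 43.6-fold below TARS1. In the mitochondrial group PARS2 was the lowest of the well-read genes with 0.72 from 70.7 fragments, after FARS2 with 2.07, AARS2 with 2.47, MARS2 with 2.47 and SARS2 with 2.94. IARS2 (chromosome 1, 220094132 to 220148041), the mitochondrial isoleucine enzyme, stood at the other end with 6.76 from 7061 fragments. It was the only mitochondrial gene above the cytosolic median. CARS2 had 4.97, and the middle of the group ran from HARS2 at 4.56 through RARS2 at 4.48, YARS2 at 4.32, TARS2 at 4.29, NARS2 at 3.79, WARS2 at 3.46 and LARS2 at 3.37 to EARS2 at 3.21.

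The groups were then compared within each amino acid that has a separate gene for each compartment. Among 17 such pairs, with EPRS1 counted once for glutamate and once for proline, the cytosolic gene was higher in 15, and the median difference was 2.80 on the log2 scale, or 6.96-fold. The widest gap was that of proline, where EPRS1 exceeded PARS2 by 6.52. Phenylalanine (4.14), asparagine (4.07), glutamate (4.02) and methionine (3.98) followed. The place of phenylalanine rests on the subunit taken, here FARSA, since FARSB minus FARS2 was 1.72. Serine (3.71), alanine (3.69), threonine (3.25), arginine (2.80), leucine (2.75), tyrosine (2.63), tryptophan (2.42) and histidine (1.77) lay in the middle.

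The values behind these gaps show how far the genes stood above the depth limit. For proline EPRS1 had a mean log2 CPM of 9.51 and 13440 fragments over a transcript of 4862 bases, and PARS2 had 1.95 and 70.7 fragments over 2356 bases. The same EPRS1 stood against EARS2 for glutamate, with 5.59 and 884 fragments over 5196 bases. FARSA had 7.06 and 2464 fragments over 1811 bases, and FARS2, the single-chain mitochondrial phenylalanine enzyme, had 2.81 and 129 fragments over 1679 bases. Asparagine paired the highest member with a middling mitochondrial gene. NARS1 had 9.32 over 2762 bases, and NARS2 had 5.12 and 640 fragments over 2512 bases. MARS1 had 7.94 and 4506 fragments over 2797 bases, and MARS2, a gene of 1 exon, had 4.07 and 309 fragments over 3027 bases. Even PARS2, the lowest of these, stood well above 10 fragments.

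In the middle of the list the mitochondrial genes ran from 272 fragments for SARS2 to 1068 for HARS2. SARS1 had a mean log2 CPM of 7.59 and 3538 fragments over 1914 bases, and SARS2 had 3.89 and 272 fragments over 1924 bases. AARS1 had 7.94 and 4516 fragments over 3437 bases, and AARS2 had 4.73 and 488 fragments over 4798 bases. TARS1 had 8.96 over 2672 bases, and TARS2 had 5.73 and 980 fragments over 2727 bases. The arginine genes differed less. RARS1 had 8.37 and 6080 fragments over 2122 bases, and RARS2 had 5.65 and 922 fragments over 2242 bases. The leucine pair had long transcripts in both compartments: LARS1 had 8.37 and 6071 fragments over 4760 bases, and LARS2 had 5.63 and 908 fragments over 4781 bases. YARS1 had 8.24 and 5584 fragments over 2443 bases, and YARS2 had 5.41 and 780 fragments over 2117 bases. Tryptophan and histidine had the narrowest gaps of these pairs. WARS1 had 7.27 and 2846 fragments over 2639 bases, and WARS2 had 4.94 and 563 fragments over 2787 bases. HARS1 had 7.29 and 2884 fragments over 1948 bases, and HARS2 had 5.86 and 1068 fragments over 2468 bases. Transcript lengths within these pairs were alike for serine, threonine and leucine, so that their gaps barely moved between the scaled and unscaled values (serine 3.71 and 3.70, threonine 3.25 and 3.22, leucine 2.75 and 2.74).

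The cysteine and isoleucine pairs departed from this pattern. CARS1 had a mean log2 CPM of 4.54 and 427 fragments over 2737 bases, and CARS2 had 5.85 and 1061 fragments over 1838 bases. IARS1 had 9.02 and 9587 fragments over 4483 bases, and IARS2 had 8.58 and 7061 fragments over 3530 bases. For cysteine the order was turned. CARS1 minus CARS2 was -1.89 per kb of transcript, -1.87 per kb of coding sequence, -1.26 with exon unions and -1.31 with no length, so CARS1 was the lower gene on each scale. For isoleucine IARS1 minus IARS2 was 0.10 per kb of transcript, 0.12 per kb of coding sequence and 0.44 with no length. Only with exon unions was it negative, at -2.00. Across the 16 pairs without valine, Pearson's r between the level of the cytosolic gene and that of its mitochondrial partner was -0.21 and Spearman's rho was -0.10. This is a correlation across genes of the same libraries and is given as a description. Overall sequence identity between partners was not measured. The longest run of identical bases between the transcripts of a pair was 24, in HARS1 and HARS2, and 23 between TARS1 and TARS3.

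**Figure D3:**
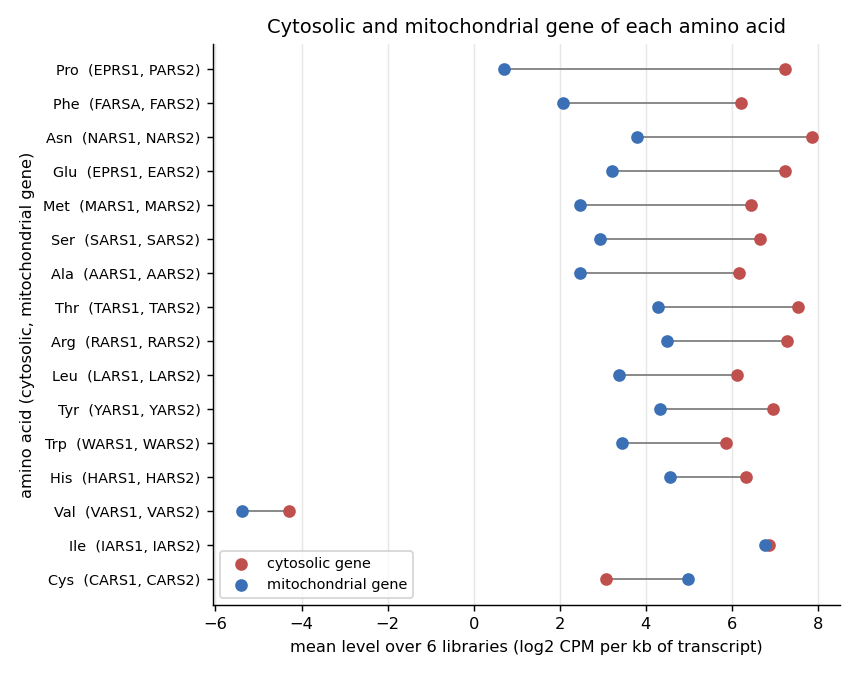
Mean level (log2 CPM per kb of canonical transcript) of the cytosolic and the mitochondrial gene for 16 of the 17 pairs, ordered by the difference, with EPRS1 drawn for both glutamate and proline. The cytosolic gene is higher in 15 of the pairs drawn, the isoleucine genes nearly coincide, and the cysteine pair is turned.

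The valine genes were hardly read at all. VARS1 (chromosome 6, 31777518 to 31795752) encodes the cytosolic valine enzyme, the only one that joins valine to its tRNA for cytosolic protein synthesis. It had a mean log2 CPM of -2.24 and an implied 3.40 fragments per library over 4111 bases. VARS2 (chromosome 6, 30914205 to 30926459) had -3.56 and 1.07 fragments over 3575 bases. Their difference of 1.11 rests on these few fragments. Both genes lie in the major histocompatibility complex region, 881.5 kb apart between starts. Within 1 Mb of either gene, 0 of 114 other protein-coding genes reached 10 fragments, against 64.9% of all protein-coding genes in the table. The highest of them was ABCF1 with 8.40 fragments, and TUBB, a tubulin, and BAG6, a chaperone, both picked after their values were seen, had 3.91 and 2.66. VARS1 and VARS2 sit inside a run of 144 consecutive protein-coding genes under 10 fragments that spans 4.03 Mb, the longest such run in the table, and the next longest had 63 genes. Around each of the other members between 36.4% and 88.9% of neighbours reached 10 fragments. The low values of the 2 valine genes stood among low values of their whole neighbourhood, and the cause was not tested.

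**Figure D4:**
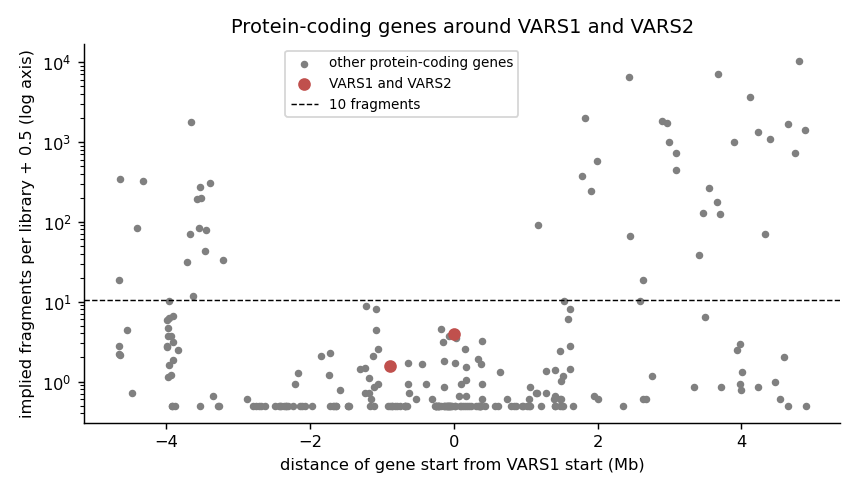
Implied fragments per library plus 0.5 (log axis) of each protein-coding gene within 5 Mb of VARS1, by the distance of its start from that of VARS1 (Mb), with a dashed line at 10 fragments. VARS1 (3.40) and VARS2 (1.07) lie in a stretch where every neighbour within 1 Mb is under 10 fragments, and higher values return on both sides.

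AARSD1, the third low member, had a mean log2 CPM of -3.78 and 0.84 fragments over 1320 bases. It is named for a domain like that of the alanine enzymes, belongs to the editing factors and charges no tRNA. It overlaps an annotated readthrough gene, PTGES3L-AARSD1, which had 0.10 fragments, whereas 77.0% of its neighbours reached 10 fragments. The part of this overlap in its low value was not tested. Without VARS1, VARS2 and AARSD1 the medians were 6.27 for the cytosolic and 3.63 for the mitochondrial group, a 6.25-fold difference, and the cytosolic gene was higher in 14 of 16 pairs with a median difference of 3.03.

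In animal cells, 8 of the cytosolic enzymes, among them EPRS1, IARS1, LARS1, MARS1, QARS1, RARS1 and KARS1, assemble with the scaffold proteins AIMP1, AIMP2 and EEF1E1 into the multisynthetase complex. The 8 complex enzymes had a median of 6.66 log2 CPM per kb and reached up to 7.51 for KARS1, with QARS1 at 5.75, LARS1 at 6.11 and MARS1 at 6.45. They held 42.9% of the summed cytosolic enzyme mRNA. The 13 free enzymes had a median of 6.21 and a far wider range, from VARS1 to NARS1, which narrowed to between 2.09 and 7.86 without VARS1. The difference between the medians was 0.45 per kb of transcript, 0.14 per kb of coding sequence and 1.08 with no length, and the ranges overlapped on the main scale. The scaffold genes were lower than most of the enzymes they hold. AIMP1 had 5.41 from a mean log2 CPM of 6.88 and 2173 fragments over 2773 bases. AIMP2 had 4.22 from 4.48 and 411 fragments over 1198 bases, and EEF1E1, which lies outside the name rule, had 4.41 from 409 fragments.

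The free enzymes also include one made of different subunits. FARSA and FARSB encode the alpha and beta chains that together form the cytosolic phenylalanine enzyme, and they had 6.21 and 3.79 log2 CPM per kb. The canonical FARSB transcript is 6761 bases long with a coding sequence of 1767, and that of FARSA 1811 with 1524. The gap was 2.42 per kb of transcript, 0.73 per kb of coding sequence and 0.52 with no length, so its size depended on the length used. The remaining free enzymes were SARS1 at 6.65, HARS1 at 6.33, AARS1 at 6.16 and WARS1 at 5.87. Synthetases fall into 2 unrelated catalytic classes, whose medians per kb of transcript were close in each compartment when all genes were counted. In the cytosol, with EPRS1 left out because it joins both classes, class I had a median of 6.11 and class II 6.33, and in mitochondria 3.46 and 3.37. Without the barely read VARS1 and VARS2, class I had 6.28 in the cytosol and 3.89 in mitochondria, so the mitochondrial closeness rested on VARS2. With no length, the median log2 CPM was 5.59 for mitochondrial class I and 4.93 for class II, and 7.94 and 7.59 in the cytosol.

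Proteins use the amino acids unequally, and the levels were set beside that use. Codons were counted over the coding sequences of 12403 nuclear genes with at least 10 fragments, each weighted by its own level. Leucine took the largest share, 9.01% of codons, and tryptophan the smallest, 0.97%, a 9.28-fold range. NARS1, the highest member, serves asparagine with 3.87% of codons, and LARS1 serves leucine from a level 3.35-fold lower. Per percent of codons, tryptophan and asparagine had 60.3 and 60.1 CPM per kb of synthetase mRNA, while cysteine had 5.12 and leucine 7.69. Over 19 amino acids, valine left out, Pearson's r between the log2 codon share and the level was 0.47 and Spearman's rho was 0.30. Over all 20 amino acids, with the barely read VARS1 included, they were 0.06 and 0.22, and without valine and cysteine 0.29 and 0.19, so the size of r rested on single amino acids. All points come from the same libraries, and these values are a description.

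**Figure D5:**
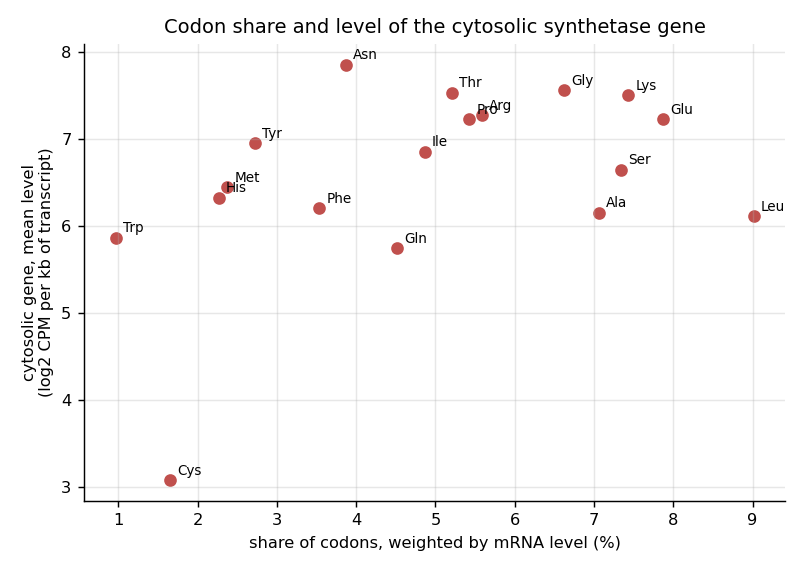
Level of the cytosolic synthetase gene (log2 CPM per kb of canonical transcript) against the level-weighted share of codons (%) for 18 amino acids. FARSA stands for phenylalanine, TARS1 for threonine and EPRS1 for both glutamate and proline, and valine is left out. Asparagine lies highest at a 3.87% share, and cysteine lies far below the rest.

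Genes that act beside the synthetases, outside the name rule, formed a list of 11. All 11 reached 10 fragments, and their median was 3.11 log2 CPM per kb. The elongation factors that take up charged tRNA were the most abundant, EEF1A1 of the cytosol with 11.23 and TUFM of mitochondria with 6.80. Per kb of transcript TUFM was close to IARS2, the highest mitochondrial synthetase at 6.76, and with no length IARS2 was the higher, with a mean log2 CPM of 8.58 against 7.81. EEF1A1 has many processed pseudogenes, so its value is uncertain where fragments could be split. Mitochondria lack a separate glutaminyl-tRNA synthetase and make glutamine tRNA by amidation of a glutamate tRNA. The 3 subunit genes of that amidotransferase, GATC, QRSL1 and GATB, had 4.04, 3.11 and 2.81, within the range of the mitochondrial synthetases, and EARS2, which makes their substrate, had 3.21. MTFMT, which formylates the mitochondrial initiator tRNA, had 2.55 and MARS2 had 2.47. PSTK and SEPSECS, which turn a serine tRNA into a selenocysteine tRNA, had 2.94 and 2.64. DTD1 and DTD2, which remove D-amino acids and other wrong residues from tRNA, had 3.73 and 1.84. Of the excluded pseudogenes WARS1P1 was listed at 0 and PRORSD1P had 16.2 fragments.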

How the data were processed

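Total RNA of A375 cells was made into strand-specific libraries, 3 per group. The authors aligned paired reads to hg38 with HISAT2 2.1.0, counted them per gene with featureCounts 2.1.1 and fitted limma-voom 3.58.1. Normalization factors, filters and strand setting are not given in the sources used here. The 1 deposited column used here is on a log2 scale: the authors' mean of log2 CPM, taken across both groups, where voom adds 0.5 to each count. The other 5 value columns hold the authors' own comparison of OZO and OLO (fold change, moderated t, p, adjusted p and log-odds) and were not used. The study's comparison was therefore not refitted.

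The lowest value was read as 0 fragments in all 6 libraries. Of the 11290 genes whose implied products were under 1000, 100% fell within 0.01 of an odd whole number, as a 0.5 offset requires. These include 7012 genes at the lowest value, whose product is odd by definition, so only the others could have failed. The depth of each library is unknown, and the implied size includes any normalization factors. The procedure was run on simulated counts made with the same 0.5 offset, from which size and fragments come back by construction. That run checks the code only, and it included no normalization factors. Lengths, starts and coding sequences were those of GENCODE 44 (GRCh38, the assembly hg38 denotes), matched by Ensembl identifier for 25497 genes, and the canonical transcript was the main length. Analysis used Python 3.11.15, pandas 2.3.3 and Biopython 1.88. Of the members, 2 are counted in every group value but are not reported here. The others were named, with fuller values for both genes of each pair, the 3 highest and 3 lowest, GARS1 and KARS1, the scaffolds and AARSD1. Members and lists were chosen with earlier results of these data known. Alternatives were other lengths, no length, means, a minimum of 10 fragments and other memberships.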

Additional observations from a re-analysis of the deposited data

How the results depend on the processing

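No paired analysis was possible because only the mean over all libraries was used. For the same reason leaving out each replicate was not run. With exon unions as length the cytosolic median became 4.67 and the mitochondrial median 2.47. Their difference became 2.20 with exon unions, 1.99 with coding length, 2.03 with no length scaling, 2.87 without AIMP1, AIMP2 and AARSD1, 2.68 without GARS1 and KARS1, 2.64 among members with 10 or more fragments and 1.98 with means in place of medians. The median within-pair difference became 2.84 with no length scaling, 2.53 with coding length and 2.24 with exon unions. The difference between complex and free enzymes became 1.08 with no length scaling and 0.14 with coding length. Chosen after the data were seen, leaving out VARS1, VARS2 and AARSD1 gave medians of 6.27 and 3.63, differences of 2.64 between groups and 3.03 within pairs, and 0.39 between complex and free enzymes. That last value was also 0.39 without TARS3, and 0.33 without all 4. No listed difference changed sign, and the implied library size was the same from the second lowest step. With no error available, a change of 0.005 or more was counted as a move. The values of VARS1, VARS2 and AARSD1 rest on under 4 fragments per library.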
